A study of Homo sapiens with 12 samples.

Results

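The protein disulfide isomerase (PDI) family is a group of enzymes of the endoplasmic reticulum (ER) that make, break and rearrange disulfide bonds in proteins entering the secretory pathway. Of its genes, 10, chosen by symbol from the family in which the study names some members as covalent protein targets of AA263, are described here: *P4HB*, *PDIA3*, *PDIA4*, *PDIA5*, *PDIA6*, *TXNDC5*, *TXNDC12*, *DNAJC10*, *TMX1* and *TMX3*. All 10 were among the 23292 gene symbols listed. The RNA came from HEK293T, a human embryonic kidney line that carries the SV40 large T antigen; the labels name its parent HEK293 as well and give the cells as wild type. Cultures received DMSO (the vehicle) or 10 µM of AA263, of its alkyne-bearing analog AA263yne or of the analog AA263-5 for 6 h, with 3 samples in each of the 4 groups. The question behind these groups was how compounds that activate ATF6, a transcription factor of the unfolded protein response, change mRNA levels.

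Only 1 value per gene was used, the authors' mean normalised value over all 12 samples, treated and vehicle alike. It has no SD, and no gene is compared here between a compound and vehicle, or between compounds. The methods state 1 nominal read number for all samples, but the reads obtained from each were not analysed here, and small differences between genes cannot be set against replicate error. Summed over all genes, the means came to 36.6 M. The markers of the line were present: all 5 of *NEFL*, *NEFM*, *INA*, *PAX2* and *LIN28B* had a mean of at least 10, from 27.7 for *PAX2* to 3786 for *NEFM*. Of 6 markers of other cell types, 5 (*ALB*, *PTPRC*, *COL1A2*, *KRT5* and *PECAM1*) lay between 0.544 and 1.30, and the muscle actin gene *ACTA1* was at 24.4. These are bulk samples, so the number of cells and the RNA per cell cannot be told apart.

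PDI enzymes carry thioredoxin-like domains whose paired cysteines pass disulfides to client proteins. Oxidases such as ERO1 restore the oxidised state of PDI, and reduced members can open wrong disulfides. Several members work with partners: the lectins calnexin and calreticulin bring glycoproteins to PDIA3, BiP (the product of *HSPA5*) works with PDIA6 and with the J domain of DNAJC10, and P4HB is also the beta subunit of collagen prolyl 4-hydroxylase. Under ER stress, ATF6 bound with NF-Y reads a promoter element, the ER stress response element (ERSE), in which a CCAAT box, read by NF-Y, and a CCACG box, read by ATF6, stand a fixed distance apart.

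The promoters are shown first because ATF6 reads this element and because, among the members, an exact match to it was found in *PDIA6* alone. RefSeq windows of 300 bases on GRCh38.p14, which start 250 bases before a transcription start and end 50 bases into the transcript, were matched by symbol for 9 of the 10 genes, all but *PDIA3*. Where a member had several windows, the one nearest to the start of its canonical transcript was taken. Exact matches were searched on both strands. A whole ERSE, spelled CCAAT, any 9 bases and CCACG, was found in 1 of the 9 members. It stood in 27 of all 35116 windows, or 0.0769%, and in 18 of 15253 windows of protein-coding genes with a mean of at least 10, or 0.118%. Among the other ER genes described further on, 4 of the 28 with a window held it in any of their windows: *HSPA5*, *CALR*, *CANX* and *ERO1B*. Counted over all their windows, the members held it in 1 of 13. The 5 matches are set out from 5′ to 3′ in the direction of the element, with the fixed CCAAT and CCACG letters in capitals and the 9 free bases in lower case.
PDIA6: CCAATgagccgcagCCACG
HSPA5: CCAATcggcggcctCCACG
CALR: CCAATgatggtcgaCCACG
CANX: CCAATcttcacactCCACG
ERO1B: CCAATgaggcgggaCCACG
The *PDIA6* match lay at chr2:10812853-10812871, on the strand of the gene, from 86 to 68 bases before the start. That of *HSPA5* lay at chr9:125241391-125241409, also on the strand of its gene, from 66 to 48 bases before the start. Those of *CALR* (chr19:12938384-12938402) and *ERO1B* (chr1:236282183-236282201) lay farther out and on the opposite strand. That of *CANX* (chr5:179698778-179698796) lay on the strand of its gene, inside 3 of the 4 windows of that gene, at a distance that depends on the start. A match is a run of letters and was not tested as a binding site. Inexact spellings and bases outside the windows were not searched. A member without a match is therefore not shown to lack a site for ATF6.

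The 250 bases before the start are given for the 3 members with the highest levels, from 5′ to 3′ on the strand of the gene, which is the minus strand for each. Capitals mark the CCAAT boxes and CCACG boxes of *P4HB* and *PDIA4* on either strand (ATTGG and CGTGG when read from the other strand). For *PDIA6* they mark the fixed letters of the whole ERSE alone.
P4HB, chr17:81860536-81860785: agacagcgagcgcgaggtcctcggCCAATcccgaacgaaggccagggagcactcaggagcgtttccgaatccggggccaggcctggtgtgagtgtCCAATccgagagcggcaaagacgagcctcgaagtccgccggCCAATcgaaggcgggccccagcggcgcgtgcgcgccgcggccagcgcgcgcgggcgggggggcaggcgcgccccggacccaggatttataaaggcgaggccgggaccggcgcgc
PDIA4, chr7:149028491-149028740: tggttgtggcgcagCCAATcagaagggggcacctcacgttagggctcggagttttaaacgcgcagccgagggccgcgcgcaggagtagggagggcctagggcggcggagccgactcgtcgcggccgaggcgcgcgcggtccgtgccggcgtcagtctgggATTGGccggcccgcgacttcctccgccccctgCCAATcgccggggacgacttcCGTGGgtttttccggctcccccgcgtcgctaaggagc
PDIA6, chr2:10812786-10813035: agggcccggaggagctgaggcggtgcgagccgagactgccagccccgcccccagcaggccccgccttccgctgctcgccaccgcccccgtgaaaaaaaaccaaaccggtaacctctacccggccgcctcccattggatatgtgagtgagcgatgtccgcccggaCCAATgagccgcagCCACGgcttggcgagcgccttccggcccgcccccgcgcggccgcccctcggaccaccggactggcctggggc
*P4HB* held 3 CCAAT boxes, at 226, 155 and 114 bases before the start, all on its own strand, and no CCACG box. *PDIA4* also held 3, at 236, 90 and 58 bases before the start, the second of them on the other strand, with 1 CCACG box 37 bases before the start that also faced the other way.

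**Figure D1:**
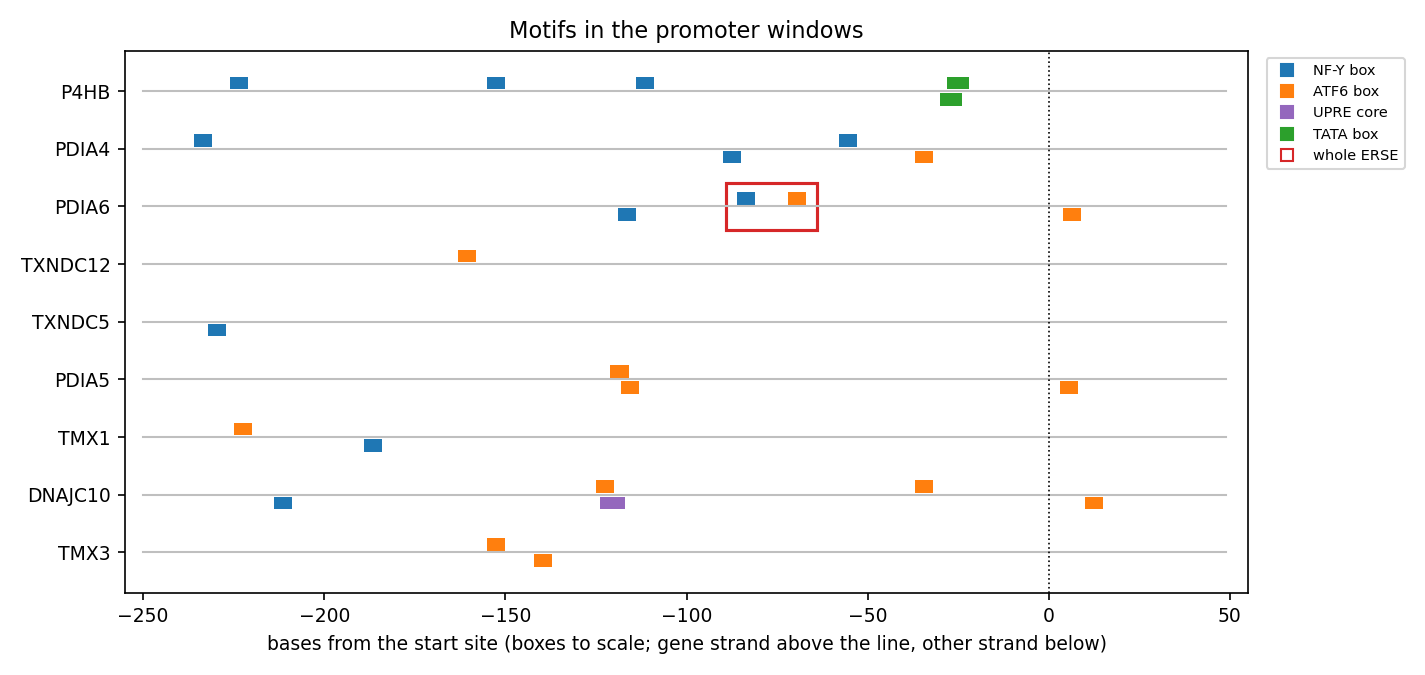
Motifs in the 300-base promoter windows of the 9 members that have one, in order of level per kilobase from the top, drawn to scale against bases from the start site, with matches on the gene strand above each line and on the other strand below it (NF-Y box: CCAAT; ATF6 box: CCACG). *PDIA6* alone has the CCAAT and CCACG boxes at the spacing of a whole ERSE (red frame), and *P4HB* alone has a TATA box.

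Single CCAAT and CCACG boxes were common in promoters at large, and 1 of each lies inside the ERSE of *PDIA6*. The CCACG box was found in 7 of the 9 members, against 47.6% of windows of protein-coding genes with a mean of at least 10. The CCAAT box was found in 6 of 9, against 34.5%. *DNAJC10* and *PDIA5* held 3 CCACG boxes each. One of those of *DNAJC10* overlapped the only match in these 9 windows to TGACGTG. This is the core of the unfolded protein response element read by ATF6 and XBP1. The match stood 124 bases before the start on the other strand. The core is found in 2.44% of windows of protein-coding genes with a mean of at least 10. A further window of *TXNDC5*, at another start, held this core too, 92 bases before that start. The TATAAA box, found in 6.16% of windows of protein-coding genes with a mean of at least 10, was present in *P4HB* alone, 28 bases before the start. The second form of the element, ERSE-II (ATTGG, any base and CCACG), was in none of the 9 and in 0.0541% of all windows. G and C made up from 56.0% (*TXNDC12*) to 81.0% (*TXNDC5*) of the members' windows, against a mean of 63.7% for protein-coding genes with a mean of at least 10.

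All 10 members had mRNA in these cells. The mean normalised values ran from 303 for *TMX3* to 31947 for *P4HB*, a 106-fold range, and all 10 exceeded 100, as did 11642 of all listed genes. The median of the 10 means was 4569, against 571 for the 15638 genes with a mean of at least 10. On this scale 9 of the 10 lay above the median of those genes, *TMX3* being the exception at the 39.8th percentile, and 3 stood at or above the 95th percentile: *P4HB* at 99.3, *PDIA4* at 99.1 and *PDIA6* at 96.9. Together the 10 means summed to 90747, or 0.248% of the total of all genes.

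**Figure D2:**
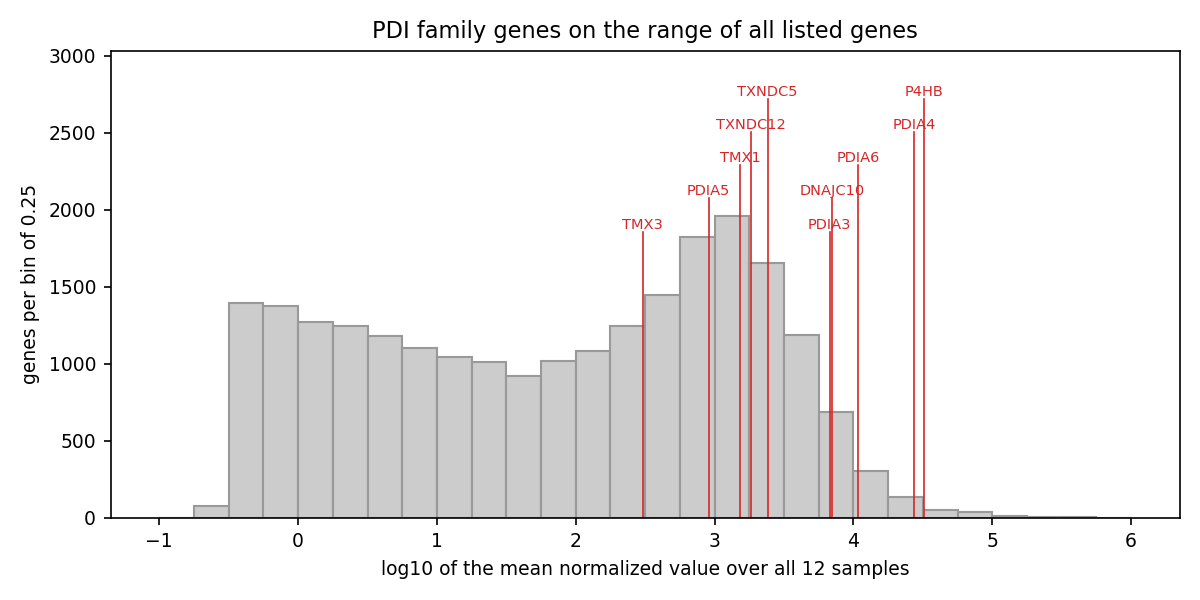
Distribution of all listed genes by the log10 of the mean normalised value over the 12 samples (bars, genes per bin of 0.25), with a red line at the value of each PDI family gene. *TMX3* lies to the left of the main peak of expressed genes, *PDIA5*, *TMX1*, *TXNDC12* and *TXNDC5* lie within it, and *P4HB* and *PDIA4* lie in its upper tail.

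As far as their sum shows, these values were not divided by length, so long transcripts collect more of them. Levels of different genes were therefore compared as the mean per kilobase of the gene's canonical transcript (GENCODE 44, GRCh38). On this scale the range widened to 205-fold (94.4-fold with the coding length and 37.0-fold with the median transcript length), and the median of the 10 was 1050, against 206 for the 14056 genes with a mean of at least 10 and a matched length. The 3 highest members, *P4HB*, *PDIA4* and *PDIA6*, held 84.2% of the summed per-kilobase level of the 10, and the 5 lowest held 6.39%. The same 3 genes held 73.8% with the coding length and 72.6% with the median transcript length, and the same 5 held 12.7% and 12.2%. *TXNDC5* is one of these 5. With the mean of a readthrough gene described below added to it, its share would be 13.4%, against 12.75% for *PDIA6*.

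*P4HB* and *PDIA4* had the highest levels. *P4HB* encodes PDI itself, the most abundant oxidoreductase of the ER lumen. It lies on the minus strand at chr17:81843159-81860856, and its canonical transcript has 11 exons. Its mean of 31947 ranked 109th among all listed genes, and its level of 13110 per kilobase was 39.8% of the family sum. *PDIA4* (ERp72), which has an additional catalytic domain, lies at chr7:149003062-149028662 with 10 exons. Its mean was 27335, its rank 135th and its level 9879 per kilobase, so that *P4HB* was 1.33 times higher. These 2 genes held 69.8% of the summed per-kilobase level. They kept the first 2 places whether the canonical, coding or median transcript length was used, with a ratio from 1.26 to 1.48.

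*PDIA6* (P5), a cofactor of BiP, came next. The gene lies at chr2:10783391-10837977 with 13 exons in its canonical transcript. Its mean was 10780 and its level 4730 per kilobase, 2.77 times below *P4HB*. Of its canonical transcript, 45.3% (1033 bases) also lies within exons of *ATP6V1C2*, a proton pump subunit gene on the opposite strand with a mean of 2335. Whether the authors' counting used the strand is not given in the sources used here, and its part in the *PDIA6* value was not tested. The same holds for *BMP6*, a growth factor gene with a mean of 173 that overlaps 7.2% of the *TXNDC5* transcript, and for a long noncoding RNA model, not analysed here, over 21.7% of the *P4HB* transcript, both on the opposite strand.

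*PDIA3* (ERp57), which folds glycoproteins handed over by calnexin and calreticulin, lies at chr15:43746394-43773279 with 13 exons. Its mean of 6725 was the fifth of the 10, and its level of 1827 per kilobase was the fourth. It thus stood 7.17 times below *P4HB* per kilobase, 4.72 times with the coding length and 3.63 times with the median transcript length. The 3 length choices moved this level from 1827 to 4439 per kilobase without moving its place. Of its canonical transcript, 16.9% overlaps *ELL3*, on the other strand, whose mean was 92.4.

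*TXNDC12* (ERp18), a small protein with a single thioredoxin-like domain, lies at chr1:52020131-52055191 with 7 exons. Its mean of 1813 was only the seventh, but its canonical transcript is the shortest of the 10, at 1416 bases, and its level of 1281 per kilobase was the fifth. This level is uncertain too, since 80.6% of the transcript also lies in exons of another protein-coding gene model on the same strand, which was not analysed here.

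*TXNDC5* (ERp46), a member with repeated catalytic domains, lies at chr6:7881517-7910788 with 10 exons. Its mean was 2413 and its level 821 per kilobase, the sixth place. A readthrough gene, *BLOC1S5-TXNDC5*, which joins the neighbouring *BLOC1S5* to *TXNDC5* (chr6:7881522-8064364), was listed apart with a mean of 12230, 5.07 times that of *TXNDC5*. Its exons cover 90.5% of the *TXNDC5* canonical transcript (2658 bases) on the same strand, so a read from the shared bases could have been counted to either gene. The level of *TXNDC5* is uncertain for this reason. With both means added, the sum of 14642 would give 4984 per kilobase, and *TXNDC5* would take the third place, ahead of *PDIA6*.

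*PDIA5* (PDIR), a less studied member with several thioredoxin-like domains, lies at chr3:123067025-123225227 with 17 exons. Its mean was 905, the ninth of the 10, and its level was 491 per kilobase, the seventh. Its canonical transcript is 1844 bases long and mostly coding, so that per kilobase of coding sequence it fell to the ninth place, at 581. Per kilobase of the median transcript its level was 1303, again the seventh.

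*DNAJC10* (ERdj5), a reductase with a J domain that helps clear misfolded proteins, depended most on the scale. It lies at chr2:182716255-182794464 with 24 exons. Its mean of 6995 was the fourth of the 10 and at the percentile of 94.1 among genes with a mean of at least 10. The canonical transcript is 20144 bases long, of which 2379 are coding, and its level per kilobase was 347, the ninth place. Per kilobase of coding sequence it was 2940, the sixth place. Its share of the summed level ran from 0.912% to 7.71% over the scales tried.

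The members anchored in the membrane were among the lower ones of the 10. *TMX1*, whose active site faces the ER lumen and which acts on membrane-bound clients, lies at chr14:51240162-51257655 with 8 exons. Its mean was 1532 and its level 380 per kilobase, the eighth place. The level was 1823 with the coding length and 723 with the median transcript length, and the place was the eighth with both. *TMX3*, a related transmembrane oxidoreductase, lies at chr18:68673688-68715108 with 16 exons. Its mean of 303 and its level of 63.9 per kilobase were the lowest of the 10 on both scales, and per kilobase it stood 5.96 times below *TMX1*. This ratio was 8.21 with the coding length and 1.64 with the median transcript length, and *TMX3* was then ninth, above *DNAJC10*. Of the 10 places, 7 stayed the same with the coding length and 8 with the median transcript length. The order among *TXNDC5*, *PDIA5*, *TMX1*, *DNAJC10* and *TMX3* therefore rests on the length taken, while the first 5 places did not move.

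**Figure D3:**
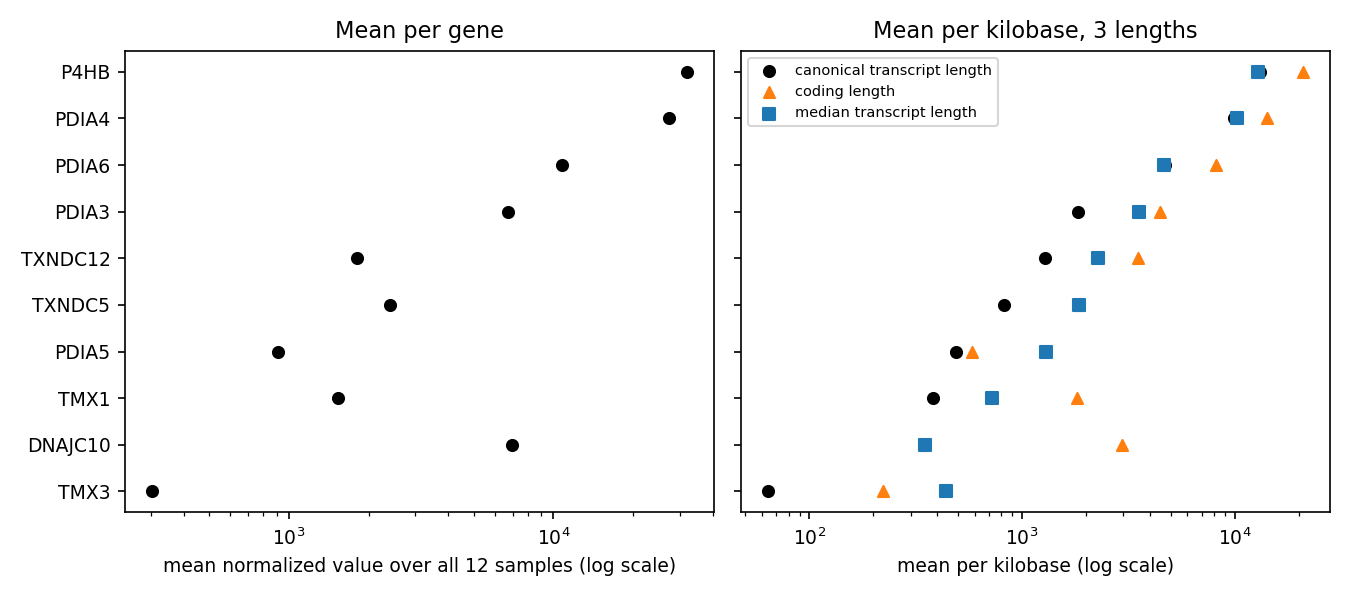
Left, the mean normalised value of each PDI family gene over all 12 samples. Right, the same value per kilobase of canonical transcript (circles), of coding sequence (triangles) and of the median annotated transcript (squares), both on log axes and without error bars because 1 pooled value per gene was used. The first 5 genes keep their places for all 3 lengths, and *DNAJC10* moves most, from 347 to 2940 per kilobase.

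Of 14 further PDI family genes, 11 were listed and 8 had a mean of at least 10. Per kilobase of canonical transcript, the highest was *ERP29*, a member without the usual active-site cysteines, at 2495, followed by *TMX2*, a transmembrane relative of *TMX1*, at 2299. Both were below *PDIA6* on this scale and with the coding length, but with the median transcript length *TMX2*, at 4956, was above *PDIA6*, at 4664. *TMX2* stood 6.04 times above *TMX1* per kilobase of canonical transcript, 2.34 times with the coding length and 6.85 times with the median transcript length. *ERP44*, which retrieves ERO1 and unassembled proteins to the ER, was at 847. *TXNDC11* (619), *TXNDC15* (383), *TXNDC16* (232) and *TMX4* (91.8 per kilobase) fell within the range of the 5 lowest members. With the median transcript length, *TXNDC11* (2099) and *TXNDC16* (1909) were above that range. *PDIA2*, a pancreatic PDI, was the lowest of the 8, at 18.7 per kilobase. *AGR2*, a PDI of mucus-secreting epithelia, and the muscle calsequestrin genes *CASQ1* and *CASQ2* had means under 1. No expression value of *PDILT*, *ERP27* or *AGR3* was analysed here.

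Of the 9 genes listed as ER oxidases and peroxidases, 8 had a mean of at least 10. *PRDX4*, the ER peroxiredoxin that turns peroxide into disulfides, was the highest at 7583 per kilobase and lay between *PDIA4* and *PDIA6*. *VKORC1*, the vitamin K epoxide reductase that can oxidise membrane-bound PDIs, was at 3882. The ERO1 oxidases were lower than their main client. *ERO1A* was at 224 per kilobase and *ERO1B* at 82.3, so that *P4HB* stood 58.6 and 159 times above them (25.6 and 71.4 times with the coding length, 10.5 and 103 times with the median transcript length). *GPX8*, a membrane-bound ER peroxidase, was at 572 per kilobase of canonical transcript, but at 3405 with the coding length and 2647 with the median transcript length. *QSOX2*, *QSOX1* and *VKORC1L1* lay between 179 and 290 per kilobase of canonical transcript, and their order changed with the length taken. *GPX7* had a mean of 0.546, under the minimum of 10.

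The partners of single members spanned both ends of the range. *CALR* (calreticulin) at 23750 per kilobase and *HSPA5* (BiP) at 18620 were above every PDI gene, 1.81 and 1.42 times above *P4HB*. *CANX* (calnexin) was at 6990, below *PDIA4*, but with the coding length it was at 19340, above *PDIA4* at 14130. Relative to *PDIA3*, which they serve, *CALR* was 13.0 and *CANX* 3.82 times higher per kilobase (8.13 and 4.36 times with the coding length, 7.93 and 1.98 times with the median transcript length). *HSPA5* was 53.6 times above its J-domain partner *DNAJC10*, or 12.7 times per kilobase of coding sequence. *EDEM1*, a lectin-like protein of ER-associated degradation that binds DNAJC10, was at 199, 1.75 times below *DNAJC10*. Their order rests on the length, since *DNAJC10* was 4.77 times higher with the coding length but 0.281 times as high with the median transcript length.

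The P4HB protein is also a subunit of other enzymes, and the genes of their remaining subunits lay below *P4HB* per kilobase. The catalytic alpha subunits of collagen prolyl 4-hydroxylase, *P4HA1* and *P4HA2*, were at 388 and 81.5 per kilobase, 33.8 and 161 times below *P4HB*. The second ratio was 90.5 with the coding length and 30.2 with the median transcript length. *P4HA3* had a mean of 8.58. *MTTP*, the large subunit of the microsomal triglyceride transfer protein of liver and gut, for which P4HB is the small subunit, had a mean of 3.92.

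**Figure D4:**
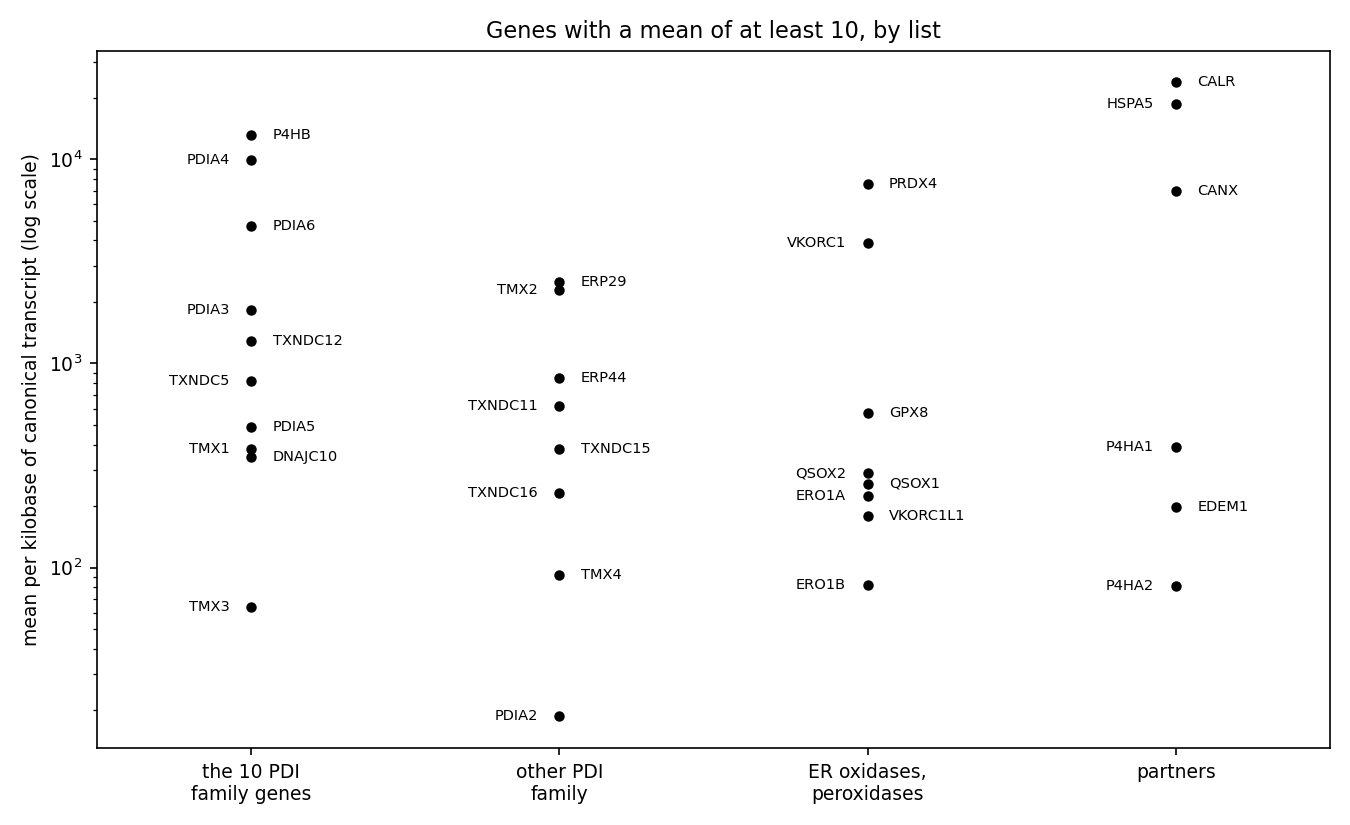
Mean per kilobase of canonical transcript (log axis) of the 10 PDI family genes, further PDI family genes, ER oxidases and peroxidases, and partners, with 1 point per gene whose mean was at least 10. *CALR* and *HSPA5* lie above all PDI genes, and *PRDX4* and *CANX* lie between *PDIA4* and *PDIA6*, while the ERO1 oxidases lie near the lower members.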

How the data were processed

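Reads were aligned by the authors with DNAstar Lasergene SeqManPro to GRCh38.p7 and quantified with ArrayStar and QSeq; the labels describe strand-specific poly(A) libraries and also name GRCh37. Each deposited signal is the authors' mean over all 12 samples of values scaled in DESeq2 (version 1.40.1 per the submitters' processing notes), and the same means stand in all 3 deposited tables. The methods name RPKM, but the means multiplied by length in kilobases sum to 119 M, where RPKM would give 1 M. The remaining columns hold the authors' log2 fold changes over vehicle, with standard errors, Wald statistics, p-values and adjusted p-values, and were not used. No test was therefore run, and the reads obtained per sample were not analysed.

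Means were divided by GENCODE 44 lengths on GRCh38, matched by symbol or synonym for 14056 of the 15638 genes (89.9%) with a mean of at least 10. The 10 members and the lists were chosen with earlier results of these data known. Named genes are all members, all genes of the lists and readthrough genes holding a member; *ATP6V1C2*, *ELL3* and *BMP6*, which overlap members on the opposite strand, were named after their values were seen. Promoter windows came from RefSeq (GRCh38.p14). Python 3.11.15, pandas 2.3.3 and numpy 2.4.6 were used. The ERSE search was tested on simulated sequences with the motif planted, and the percentile step on a series of known numbers. Samples were grouped by their labels. Alternatives were other lengths, filters, scales and tables.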

Additional observations from a re-analysis of the deposited data

How the results depend on the processing

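The 10 means summed to 90747 in each of the 3 tables. Of the 10 places per kilobase, 7 were kept with the coding length and 8 with the median transcript length. The median percentile of the members was 86.7 among genes with a mean of at least 10, 91.1 with no filter, 82.2 with a minimum of 100 and 81.6 per kilobase. The share of *P4HB* in the summed level was 39.8%, and it was 35.8% with the coding length, 33.7% with the median length, 35.2% without division by length and 35.3% with the readthrough mean added to *TXNDC5*. The share of *TXNDC5* ran from 2.49% to 13.4% over these settings, the highest with the readthrough mean added. No paired analysis was possible because only a mean over all 12 samples was used, although the groups share replicate numbers, and for the same reason no sample could be left out. Nothing here bears on a response to AA263, AA263yne or AA263-5.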
